A study of Mus musculus with 42 samples.

Results

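Krt7, Krt8, Krt18 and Krt19, the keratins of simple epithelium that mark the luminal cells of the mammary gland, were followed in 21 mouse mammary tumours. Each of these 4 genes had 1 probe in the platform annotation, out of 22800 on the array. All 4 were among the 9407 probes, of 7629 genes, that could be tested, which required a value on both arrays of at least 15 tumours. The tumours descended from mammary neoplasms of FVB/N-Tg(WapMyc)212Bri mice, in which the promoter of the milk protein gene Wap drives c-Myc, and all 21 share that transgene. Passage in living mice with selection gave lines of glandular, solid or comedo (with or without spread to the lung) and spindle-cell growth, but the labels used here give a tumour number and no line, host strain or age. Tumours are therefore named by number, some may come from the same line, and 5 of them (644, 646, 647, 649 and 673) are called high-Vim tumours from their ratio of Vim, the intermediate filament of mesenchymal cells. The other 16 tumours (638, 639, 640, 641, 643, 653, 655, 656, 660, 662, 663, 664, 665, 667, 669 and 670) are called low-Vim tumours.

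Each tumour RNA was hybridised to 2 arrays with the dyes swapped against a universal mouse reference RNA, a pool made from cultured mouse cell lines, so every value below is a log2 ratio to that pool and cannot be read as an amount of a keratin relative to another gene. The deposited ratios were not turned for the dye swap. They were turned here, with the sign of all arrays together chosen to give Myc a positive median (1.85), which makes "above the reference" likely but not proven. With the sign turned, all directions below would turn together. The standard error of a tumour mean comes from the 2 arrays of 1 RNA, as do the p-values of limma's tests and of the permutation tests on keratin differences. They therefore measure hybridisation error and not the spread between animals. Arrays held 8600 to 21328 measured probes (median 17478.5), and the number of arrays limits the precision. The 2 arrays of tumour 656 did not agree once turned (correlation over probes 0.07 before turning, where the other 20 tumours lay between -0.56 and -0.06), and the main values that rest on it are also given without it.

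Keratins build intermediate filaments as obligate pairs of a type II and a type I chain. Krt8, a type II chain, pairs mainly with the type I chain Krt18 in simple epithelia, and each chain is degraded when its partner is lacking. Krt7 is a further type II chain of ducts and glands, and Krt19 is a small type I chain without the usual tail domain that is found in luminal mammary cells and in progenitor cells of several epithelia. When epithelial cells take on a mesenchymal form, keratins and the adhesion molecule Epcam commonly fall while Vim rises. In bulk tissue, fewer cells of a type and less RNA per cell cannot be told apart.

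Krt8 and Krt18 are neighbours on mouse chromosome 15 (build GRCm38.p6), at chr15:101996711-102004342 for Krt8 and chr15:102028216-102032026 for Krt18, with 23873 bases between them. Krt7 lies on the same chromosome at chr15:101412403-101427806, and Krt19 lies in the type I cluster at chr11:100140810-100145926. The 250 bases before the start of Krt8 (chr15:102004343-102004592, minus strand) and of Krt18 (chr15:102027966-102028215, plus strand) are shown because the ratios of these partner chains lay apart in the high-Vim tumours. The sequences are those of RefSeq for GRCm38.p6, written 5′ to 3′, and capitals mark CAGGTG on either strand, the core of an E-box that repressors of the Snail and Zeb families bind.
Krt8 promoter: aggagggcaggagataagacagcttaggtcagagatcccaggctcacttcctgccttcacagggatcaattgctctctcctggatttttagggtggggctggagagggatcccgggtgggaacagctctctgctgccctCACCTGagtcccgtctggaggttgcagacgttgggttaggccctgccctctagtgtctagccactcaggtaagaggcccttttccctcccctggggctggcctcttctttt
Krt18 promoter: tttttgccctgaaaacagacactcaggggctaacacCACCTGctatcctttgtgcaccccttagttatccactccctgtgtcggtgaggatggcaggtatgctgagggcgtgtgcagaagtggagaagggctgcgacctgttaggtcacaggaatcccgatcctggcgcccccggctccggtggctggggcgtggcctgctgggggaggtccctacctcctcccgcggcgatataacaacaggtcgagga
Each window held 1 copy of this motif, which begins at position -111 of Krt8 and at position -214 of Krt18, counted from the first transcribed base. The motif is in 17.2% of 32851 promoter windows of this length. A search for the TATA motif TATAAA and the GC box GGGCGG on both strands found neither in these 2 windows, whereas 12.4% and 32.7% of all windows hold them. With a single motif in each window there was no overlap between motifs.

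Vim split the tumours without overlap by the way they were named, and Epcam also split them without overlap. Vim ratios on the 10 arrays of the high-Vim tumours lay between 0.28 and 1.42, and those on the 32 arrays of the low-Vim tumours between -5.13 and -2.30. Epcam, the epithelial adhesion molecule, lay between -4.49 and 0.07 on the arrays of the high-Vim tumours and between 0.71 and 3.84 on those of the low-Vim tumours. High-Vim tumour means were all below those of the low-Vim tumours for 1.15% of 6537 genes with a mean in every tumour, and all above them for 4.88%. Since the split was made on a measured value, the keratins are described on both sides of it without a test.

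Krt8 stayed high where Vim was high. The 2 arrays of each high-Vim tumour gave Krt8 ratios of 2.08 and 2.62 in 644, 2.28 and 2.14 in 646, 2.58 and 2.31 in 647, 3.47 and 3.02 in 649, and 2.63 and 2.26 in 673. All 10 were above 2, that is over 4-fold above the reference on the likely direction. In the low-Vim tumours the mean Krt8 ratio ran from 0.74 in 656 over a median of 1.74 to 3.14 in 643. The lowest of these means, from 0.74 in 656 to 1.29 in 664, all came from tumours with an array in slide run 2 (described further on). Tumour 653 of that run read 2.00, and no high-Vim tumour had an array in it. Low-Vim tumours without an array in run 2 ran from 1.68 in 670 to 3.14 in 643. The part of slide run in the Krt8 levels was not tested. The 5 high-Vim tumours held ranks within the upper 9 of 21, with 643, 667, 641 and 638 (3.14, 2.84, 2.44 and 2.31) among them. Such a placing was not rare, as 13% of 6537 genes had all 5 high-Vim tumours in the upper 9.

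Krt18, the partner chain, was low in the same tumours. Its array ratios were -1.28 and -1.58 in 644, -0.65 on the single measured array of 646, -0.66 and -1.87 in 647, 0.28 and -0.64 in 649, and -1.32 and -0.26 in 673, so 1 of 9 arrays was above 0. In the low-Vim tumours 27 of 32 arrays were above 0, and tumour means had a median of 0.65 and a highest value of 1.34 in 669. The groups overlapped through 3 low-Vim tumours, 663 (-0.30), 664 (-1.10) and 656 (-2.98), and in each of these the 2 arrays lay more than 2 log2 units apart. For 5.72% of genes all high-Vim tumours ranked among the lower 8 of 21. Of the 41 measured Krt18 arrays 15, 7 of them in high-Vim tumours, carried a ratio of small whole numbers, read without a test as a sign of dim spots. Such ratios made up 34.5% of all measured values. They were found on 9 of 40 arrays for Krt7, 2 of 42 for Krt8 and 1 of 35 for Krt19.

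**Figure D1:**
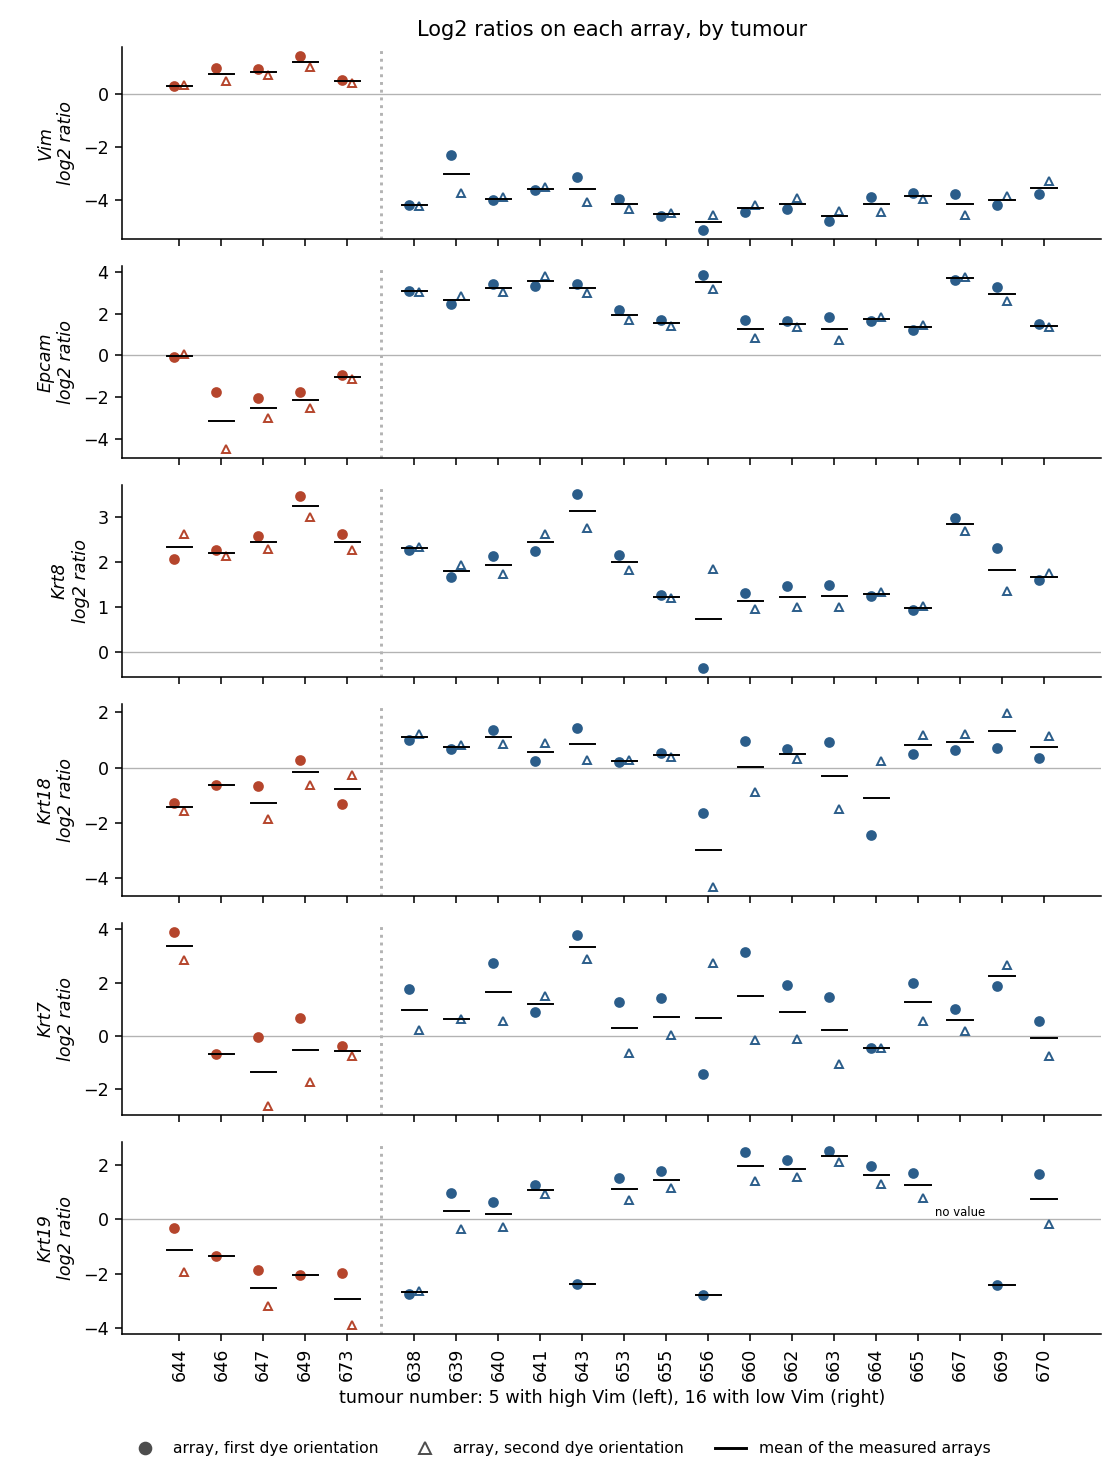
Log2 ratios of Vim, Epcam and the 4 keratins (vertical axes) for each tumour (horizontal axis), with the 5 high-Vim tumours left of the dotted line and the 16 low-Vim tumours right of it. Filled circles and open triangles are the arrays of the 2 dye orientations and bars are means of the measured arrays. All 10 Krt8 arrays of the high-Vim tumours lie above 2, whereas 8 of their 9 Krt18 arrays and all 8 of their Krt19 arrays lie below 0.

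Krt19 was low in every high-Vim tumour that gave a value. Its arrays read -0.32 and -1.94 in 644, -1.34 on the measured array of 646, -1.88 and -3.18 in 647, -2.06 on the measured array of 649, and -1.98 and -3.89 in 673. All 8 were below the reference on the likely direction, and the means held ranks 12 to 20 of 20. They overlapped with 4 low-Vim tumours, described further on.

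Krt7 was mixed among the high-Vim tumours. Tumour 644 had ratios of 3.90 and 2.85 on its arrays and the highest Krt7 mean of all 21 tumours, 3.38. The other 4 high-Vim tumours had means from -1.33 in 647 to -0.53 in 649, against -0.45 in 664 to 3.33 in 643 in the low-Vim tumours. These 4 were thus the 4 lowest tumours for Krt7 on the scale as deposited. Tumour 646 had a single measured Krt7 array. With arrays centred on their medians it read -0.04, above the low-Vim tumour 670 at -0.19. The share of genes with such a placing was not computed. Krt7 also had the largest hybridisation error of the 4 keratins, with a standard deviation of 1.30 for an array within its tumour, and its first dye orientation read higher than the second by 1.06 on average over 19 tumours. No difference between tumours in Krt7 passed the tests as deposited, whereas with dye orientation fitted 9 of 210 pairs of tumours did, where 6.1% of all probe and pair combinations were called.

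Across all 21 tumours the moderated F test of limma, adjusted over 9407 probes by Benjamini-Hochberg, called 1804 probes at a threshold of 0.05, which is 19.2%. Krt19 (adjusted p = 1.97e-04), Krt8 (adjusted p = 0.00631) and Krt18 (adjusted p = 0.0395) were among them, and Krt7 was not (adjusted p = 0.259). The range of tumour means was widest for Krt19, from -2.93 in 673 to 2.31 in 663 (standard error 0.54 with both arrays measured, 0.77 with 1). Krt8 had the smallest range, from 0.74 in 656 (0.98 in 665 without that tumour) to 3.24 in 649 (standard error 0.34), so a keratin whose mean was above the reference in every tumour still differed between tumours. Krt18 ran from -2.98 in 656 (-1.43 in 644 without that tumour) to 1.34 in 669 (standard error 0.62), and its call rested on tumour 656: without that tumour the adjusted p was 0.129. The Krt18 call was also lost in 27 of 42 fits that left out a single array. Krt8 was no longer called when arrays were centred on their medians (adjusted p = 0.206, with 18.2% of all probes called), after quantile normalisation (0.189) or with slide run as a block (0.215). It stayed called with arrays centred on probes measured on all arrays (0.0165, with 25.1% of all probes called). The same held with dye orientation fitted (0.00272, with 43.9% called). Krt7 was called after centring on array medians (0.0184) and after quantile normalisation (0.0112). It was not called after centring on probes measured on all arrays (0.079) or with dye orientation fitted (0.0528). With the highest deposited number, which many probes share, kept rather than set to missing, Krt19 was not called (0.159).

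Each tumour was also set against the mean of all tumours in the same fit, a test in which 0.845% of all probe and tumour combinations lay above and 1.03% below. For Krt8 the call fell on high-Vim tumour 649, which was 1.31 above the mean (standard error 0.33, adjusted p = 0.0412). That tumour was above the mean for 2.55% of all probes. The Krt8 call of 649 was lost with centred arrays (adjusted p = 0.24 on array medians). For Krt18 tumour 656 was called, at -3.01 (adjusted p = 0.00901), and no high-Vim tumour was. For Krt19 the high-Vim tumours 673 (-2.61, adjusted p = 0.0147) and 647 (-2.21, adjusted p = 0.0399) and the low-Vim tumour 638 (-2.37, adjusted p = 0.0269) lay below the mean. Tumours 673 and 647 were below it for 0.469% and 0.586% of all probes. The low-Vim tumours 663, 660 and 662 lay above the mean by 2.63, 2.27 and 2.18 (adjusted p = 0.0141, 0.0344 and 0.0424). With slide run as a block 0 tumours were called for Krt19. For Krt7 no tumour was called as deposited, with 644 at 2.61 and an adjusted p of 0.16, but 644 was called after each centring, after quantile normalisation and with dye orientation fitted (adjusted p from 0.0141 to 0.0471). With arrays centred on fully measured probes and dye orientation fitted, a setting picked once results were known, 40.4% of probes, 6.66% of pairs and 3.22% (above) or 3.49% (below) of probe and tumour combinations were called. In that fit Krt7 was above the mean in 644 and 643, Krt8 above it in 649 and below it in 656, Krt18 below it in 656, and Krt19 above it in 7 tumours (653, 655, 660, 662, 663, 664 and 665) and below it in 7 (638, 643, 647, 649, 656, 669 and 673).

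The difference between keratins on the same array does not depend on how that array was centred. Krt8 minus Krt18 lay between 2.53 and 4.21 on the 9 arrays of the high-Vim tumours, with tumour means of 3.78 in 644, 3.71 in 647, 3.42 in 649, 3.24 in 673 and 2.93 in 646. In the low-Vim tumours the mean difference had a median of 1.15 and ran from 0.16 in 665 to 3.72 in 656. Tumour 656 was the 1 low-Vim tumour that reached the lowest high-Vim mean, and its 2 arrays read 1.28 and 6.16. A further array, of low-Vim tumour 664, read 3.67 while its partner read 1.10. How often the difference of 2 other genes parts these tumours as far was not computed, so the gap cannot be called particular to these keratins. In a permutation test that re-paired arrays of opposite orientation 100000 times, adjusted over 6 keratin pairs, the Krt8 minus Krt18 difference missed the threshold across 20 tumours (adjusted p = 0.0513) and passed it without tumour 656 (0.00436). It had an adjusted p of 0.107 without high-Vim tumour 644. Within the low-Vim tumours alone, an alternative added later, the adjusted p was 0.461, and with whole-number ratios set to missing it was 0.766.

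**Figure D2:**
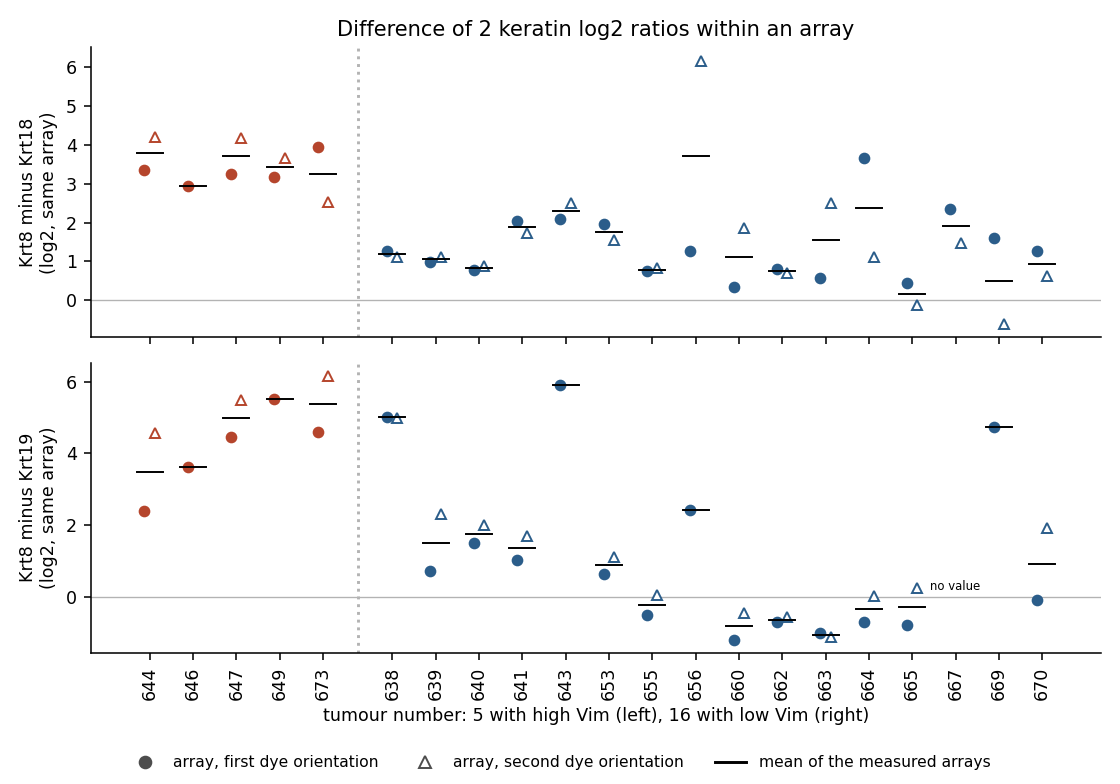
Krt8 minus Krt18 (upper panel) and Krt8 minus Krt19 (lower panel), each a difference of log2 ratios within an array (vertical axes), for each tumour (horizontal axis), with the 5 high-Vim tumours on the left. Circles and triangles are arrays of the 2 dye orientations and bars are their means. The Krt8 minus Krt18 arrays of the high-Vim tumours sit between 2.53 and 4.21, and the triangle at 6.16 belongs to tumour 656.

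Krt8 minus Krt19 differed across 15 tumours with both arrays (adjusted p = 6e-05, from the smallest p that these permutations can give, 1e-05). It averaged from 3.48 in 644 to 5.52 in 649 among the high-Vim tumours and from -1.06 in 663 to 5.90 in 643 among the low-Vim tumours, of which 643, 638 and 669 reached the lowest high-Vim value. Krt8 minus Krt7 differed too (permutation test, adjusted p = 0.00225), but not within the low-Vim tumours alone (0.248). High-Vim tumours stood at both ends of that difference, with 3.78 in 647, 3.77 in 649, 3.00 in 673 and 2.97 in 646, and with -1.03 in 644, the lowest of all tumours. So the high-Vim tumours did not move as a group in the difference of the type II chains Krt8 and Krt7. Their Krt8 means lay between 2.21 and 3.24, whereas their Krt7 means ran from -1.33 in 647 to 3.38 in 644. Krt7 minus Krt19 (adjusted p = 5.7e-04) and Krt18 minus Krt19 (0.00225) also passed the permutation test, whereas Krt7 minus Krt18 did not (0.0783, and 6.6e-04 without tumour 656).

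Krt19 divided the low-Vim tumours into an upper and a lower part. From high to low, the mean ratios were 2.31 in 663, 1.95 in 660, 1.86 in 662, 1.62 in 664, 1.45 in 655, 1.25 in 665, 1.11 in 653, 1.08 in 641, 0.75 in 670, 0.29 in 639 and 0.17 in 640. A gap of 2.55 followed, the widest in this order, and then came 643 at -2.38, 669 at -2.42, 638 at -2.69 and 656 at -2.79. The 11 upper tumours were above 0 and the 4 lower ones overlapped with the high-Vim tumours (-2.93 to -1.13). Tumour 667 had a blank on both arrays and is in neither part.

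The parts were read from these same means and were not tested as groups. Tests were taken from the contrasts between all pairs of tumours, in which 2.03% of all probe and pair combinations were called. For Krt19, 52 of 190 pairs (27.4%) were called, and for Krt8, Krt18 and Krt7 16, 11 and 0 of 210. Between upper and lower tumours 27 of 44 Krt19 pairs were called (19 of 33 with 656 not counted), and between upper and high-Vim tumours 25 of 55. Within the upper part 0 of 55 pairs were called, within the lower part 0 of 6, within the high-Vim tumours 0 of 10, and between lower and high-Vim tumours 0 of 20. No neighbours in the order differed (0 of 19). Since the parts were cut at the widest gap of the same means, these counts describe the split and are no test of it. Of the 4 lower tumours 3 had a single measured array, which widens their error. All 11 Krt18 pairs had tumour 656 as a member. Of the 16 Krt8 pairs 7 had 649, 7 had 643 and 2 had 667 as the higher tumour. These higher tumours had both arrays in slide run 3. The lower tumour of each called Krt8 pair was 655, 656, 660, 662, 663, 664 or 665, all with an array in run 2. With slide run as a block 0 Krt8 pairs were called, and the part of slide run in these calls was not tested further.

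**Figure D3:**
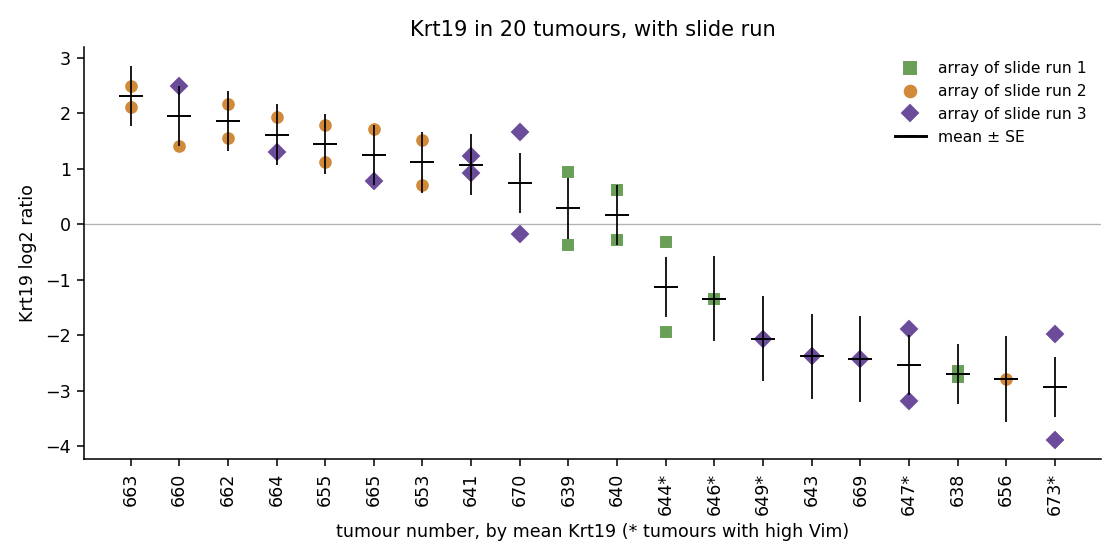
Krt19 log2 ratio (vertical axis) in the 20 tumours with a value, ordered by mean (horizontal axis, high-Vim tumours starred), with bars for the mean and its standard error and symbols for each array by slide run. The upper 11 tumours lie between 0.17 and 2.31, the high-Vim tumours between -2.93 and -1.13, and the 4 low-Vim tumours below the gap lie between -2.79 and -2.38.

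Missing Krt19 values gathered at the low end. Of 42 arrays 7 gave no usable Krt19 ratio, 6 as blanks and 1, in tumour 649, as the repeated top value, and they belonged to 643, 646, 649, 656, 667 and 669. The 5 of these tumours with a measured array read between -2.79 and -1.34 on it. Of the 7 arrays 6 had the second dye orientation. The first orientation read higher than the second in 14 of 15 tumours, by 0.95 on average, and the means of tumours with a single measured array were not adjusted for this. With dye orientation as a covariate 107 of 190 pairs were called, where 6.1% of all probe and pair combinations were.

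Slide run, taken from the running number of each title (the labels name no batch), moved with the upper part. Of the 11 upper tumours 653, 655, 662 and 663 had both arrays in run 2, 660, 664 and 665 had an array in run 2 and another in run 3, 641 and 670 lay in run 3, and 639 and 640 in run 1. The arrays of run 3 read 2.48 in 660, 1.29 in 664 and 0.79 in 665, and those of run 2 read 1.41, 1.94 and 1.71. The 2 arrays of each of these tumours also differed in dye orientation. Run 3 held the low-Krt19 tumours 643 and 669 as well. The lower tumour 656 was in run 2 and 638 in run 1. Within single runs no keratin passed limma's test, with Krt19 at adjusted p of 0.262, 0.574 and 0.404, in fits where 0, 0 and 54 probes were called in all. Run and tumour were largely confounded, and the part of slide run in the Krt19 order was not tested further.

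Epcam lay higher below the Krt19 gap than in most tumours above it, without a test. Its means had a median of 3.14 in the 4 lower tumours (2.93 to 3.51) and of 1.55 in the 11 upper ones (1.27 to 3.57), of which 9 were below all 4 lower tumours. The upper tumours with an array in slide run 2 had Epcam means from 1.27 in 660 to 1.92 in 653. The other upper tumours read 2.64 in 639, 3.23 in 640, 3.57 in 641 and 1.42 in 670. Of the lower tumours 656 alone was in run 2, at 3.51. The part of slide run in these Epcam values was not tested. Vim means had medians of -4.11 in the lower and -4.13 in the upper tumours. Low Krt19 was found with high Vim and low Epcam in 5 tumours and with low Vim and high Epcam in 4. Krt8 ran from 0.74 to 3.14 in the lower and from 0.98 to 2.44 in the upper tumours, and Krt7 from 0.67 to 3.33 and from -0.45 to 1.66. Tumour 643, with a Krt19 ratio of -2.38, had the highest low-Vim means of both Krt8 (3.14) and Krt7 (3.33).

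Relations between tumour means were computed within the low-Vim tumours, and for Krt19 within its 11 upper tumours, since a pooled value would span the gap. None of 10 relations passed after adjustment of Pearson's r by permutation. Krt8 and Krt18 had r = 0.56 and rho = 0.59 over 16 tumours (permutation p = 0.0205 and 0.0191, adjusted p = 0.0602 and 0.0635), and r was 0.61 without 643 and 667 and 0.47 without 656. Vim and Krt19 had r = -0.76 and rho = -0.79 over 11 tumours (permutation p = 0.00658 and 0.00526, adjusted p = 0.0602 and 0.0327), and r was -0.62 without 639 and 670. Krt18 and Krt19 had r = -0.66 and rho = -0.78 (permutation p = 0.023 and 0.00653, adjusted p = 0.0602 and 0.0327), and r was -0.77 without 663 and 664. The rank correlations of these Krt19 pairs thus passed where Pearson's did not. With arrays centred on their medians r became 0.41 for Krt8 and Krt18, -0.08 for Vim and Krt19 and -0.19 for Krt18 and Krt19, so these relations rested on the uncentred scale. The other 7 relations had adjusted p of 0.0602 or more by Pearson's r.

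Other filament genes and their partners were read from gene lists, beside 1508 of 7629 genes (19.8%) that differed between tumours with 1 probe for each gene. Of 2 tested basal and stratified keratins 1 differed, Krt16, a keratin of stressed and proliferating epidermis, from -0.01 in 639 to 2.58 in 644 (adjusted p = 0.0425). The basal mammary keratins Krt5, Krt14 and Krt17 were not among those that could be tested. Of 8 tested further intermediate filament genes 4 differed, with Des, the muscle filament desmin, from -3.17 in 641 to 5.18 in 673 (adjusted p = 0.0018), beside Vim, Nes and Lmna. Of 9 tested anchors and partners of keratin 2 differed. Plec, which links filaments to hemidesmosomes and other cytoskeletal parts, ran from -2.65 in 660 to 1.86 in the high-Vim tumour 649, and Perp, a desmosomal membrane protein, from -1.17 in 660 to 1.79 in 667 (adjusted p = 9.15e-06 and 1.35e-05). The median range of tumour means was 2.51 for the anchors, against 3.09 for all genes.

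Of 9 tested epithelial surface and junction genes 4 differed (Epcam, Spint2, Muc1 and Tjp1). Spint2, a membrane-bound protease inhibitor, was lowest in the high-Vim tumour 649 (-3.10) and highest in 667 (3.83). Of 8 tested luminal and epithelial regulators 2 differed: Xbp1, a transcription factor of secretory cells, was lowest in the high-Vim tumour 673 (-0.70) and highest in 669 (3.13), and Grhl2, a regulator of epithelial junctions, was lowest in the high-Vim tumour 646 (-0.36) and highest in 667 (4.97). Of 5 milk genes 3 differed, led by the casein Csn2, from -1.62 in 646 to 7.54 in 641. Not all called members of these lists were lowest in a high-Vim tumour: Tjp1, a tight junction scaffold, was lowest in the low-Vim tumour 664 (-1.56) and highest in the high-Vim tumour 649 (1.92), and Mfge8, a milk fat globule protein, was lowest in the low-Vim tumour 669 (-0.34).

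The medians of the mesenchymal and macrophage lists were higher in the high-Vim tumours, whereas those of other cell types overlapped. Of 13 tested mesenchymal genes 11 differed, and their median ratio was 0.54 to 0.79 in the high-Vim tumours against -3.07 to -1.61 in the low-Vim tumours. That list holds Vim, which named the high-Vim tumours; without it 10 of 12 genes differed, and the median was 0.56 to 0.97 in the high-Vim tumours against -2.93 to -1.42 in the low-Vim tumours. Of 8 tested macrophage genes 7 differed, and their median was 1.63 to 2.30 in the high-Vim tumours against -2.80 to 1.14 in the low-Vim tumours. Not every tested member of these lists was highest in a high-Vim tumour. Snai1 (2.36 in 660), Snai2 (0.52 in 656), Acta2 (1.39 in 667) and C1qa (4.17 in 641) were highest in a low-Vim tumour. Of these, Acta2 and C1qa were among the genes that differed. The part of mesenchymal or macrophage RNA in the low Krt18, Krt19 and Epcam ratios, or in the high Krt8 ratios, was not tested. Of 3 endothelial genes 0 differed in limma's test (1 at an unadjusted p below 0.05), of 3 adipocyte genes 0 (0 unadjusted), and of 4 myoepithelial genes 1, the smooth muscle actin Acta2. For these lists the high-Vim and low-Vim medians overlapped, at -0.38 to 1.75 against -1.14 to 1.72 for endothelial and -0.73 to 0.55 against -2.53 to 0.36 for myoepithelial genes.

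The genes whose tumour means ran most like each keratin were found by Pearson's r among 7628 other genes, as a description over tumours that share a reference and slide runs. Krt8 was closest to Myo5a, an unconventional myosin (r = 0.94), Prr13, Anxa1, a phospholipid-binding annexin (0.89), Ppp2cb and the cytoplasmic actin Actg1 (0.88), over 21 tumours. Its most opposite genes were Rwdd2b (-0.82), the amino acid transporter Slc7a1 (-0.78) and 4931440J10Rik (-0.77). Krt18 was closest to Wdr77 (0.95, and 0.92 without tumour 656), Prmt5 (0.94, and 0.89 without 656), Ddx56, G3bp1 and Nip7, all lowest in tumour 656. Of these 5 genes Ddx56 alone differed between tumours in limma's test (adjusted p = 0.0214), with Wdr77 at 0.486 and Prmt5 at 0.872. Opposite to Krt18 ran Fam3c, the receptor Nrp1 and Slc12a7. Krt19 was closest to Cstf1 (0.87), Pgk1, a glycolytic enzyme (0.87), Pfdn4, the mitotic kinase Aurka (0.84 over 20 tumours) and Eldr, and most opposite to Hsd3b7 (-0.88), Ccdc91 and Folr2. Krt7 had the loosest matches, with 1300011L04Rik at 0.78, Lpin1, Aipl1, Hook2 and Hipk3, and the opposite genes P3h4, Txndc17 and Zfp281. Of these Lpin1 alone differed between tumours in limma's test (adjusted p = 0.00769), and the rest had adjusted p of 0.365 or more. Further genes named above that did not differ were Prr13 (0.0585) and Slc7a1 (0.516) for Krt8. For Krt18 these were also Fam3c (0.375) and Slc12a7 (0.0701), and for Krt19 Eldr (0.0537), Ccdc91 (0.225) and Folr2 (0.621). No keratin was among the 5 genes closest to another keratin.

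**Figure D4:**
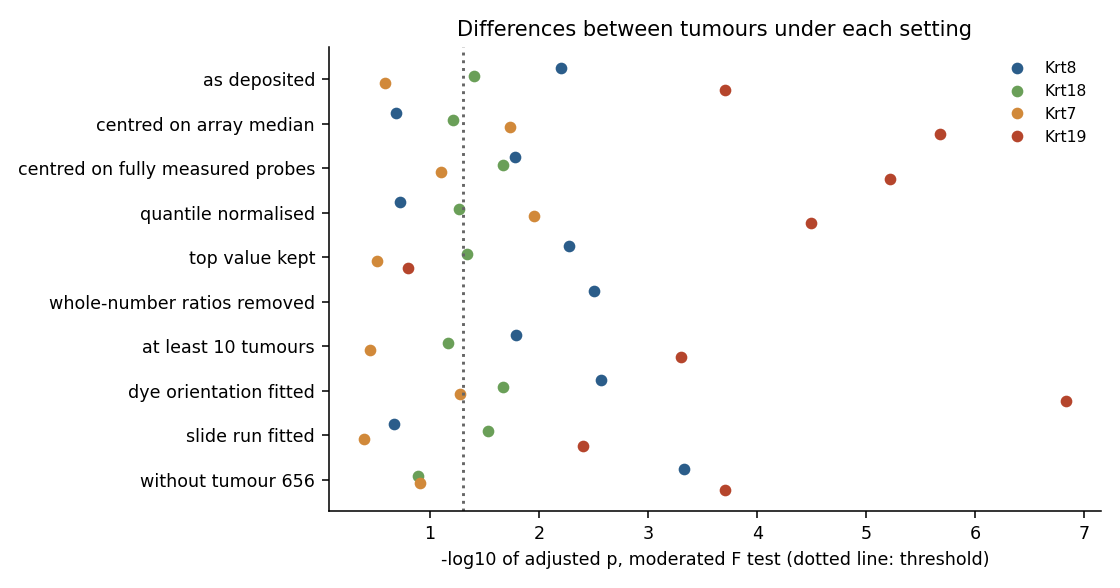
Minus log10 of the adjusted p of limma's moderated F test (horizontal axis) for the 4 keratins (colours) under each processing setting (rows), with the dotted line at the threshold of 0.05; a missing point could not be fitted. Krt19 lies right of the line in each setting shown that could be fitted, except with top values kept, whereas Krt8, Krt18 and Krt7 cross it with the scale.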

How the data were processed

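The authors deposited log2 ratios of the dyes for 42 arrays, 2 for each of 21 tumours, a scale read from the values. How the images were read, corrected and normalized is not given in the sources used. The highest number in the table, repeated 15512 times (2.14% of values), was set to missing, on the untested reading that it marks an empty denominator. Per the labels the arrays of a tumour are a dye swap. Arrays were turned with the leading eigenvector of the correlations between within-tumour array differences, which gave the same orientation in both random parts of the probes for 21 tumours. After turning, tumour pairs correlated with a median r of 0.42 (lowest -0.02), and arrays within an orientation had a lowest r of -0.24. Array medians over the 4038 probes measured on every array then ran from -1.14 to 0.78, and ratios were not recentred.

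Probes were named by the platform annotation (16874 probes with 1 symbol, 134 with several, 5792 with none), and 232 Gapdh control spots were averaged. Each probe was fitted with the tumour as a factor and limma 3.58.1's variance moderation (R 4.3.3), with Benjamini-Hochberg adjustment over all probes, over all probes and pairs, or over all probes and tumours. The fit, which allows for missing values, was tested on simulated data. Permutation tests were run with numpy 2.4.6. Relations with Krt19 had been planned over all low-Vim tumours and were taken within the 11 upper ones once the gap was seen. The member of a list was its probe with the most measured arrays, a rule set after the values were seen. Genes named were the 4 keratins, Vim and Epcam, the 2 list members with the smallest adjusted p, and for each keratin the 5 most alike and 3 most opposite genes; genes outside this rule, such as Nes, Lmna, Muc1 and Tjp1, were named after their values were seen. The 4 keratins, the high-Vim tumours and the lists were chosen with earlier results of these data known. Leaving Vim out of the mesenchymal list, and tumour 656 out of the likeness of genes and of the Krt19 pair counts, were alternatives added after seeing the data.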

Additional observations from a re-analysis of the deposited data

How the results depend on the processing

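Each setting is set against 1804 called probes and, for Krt7, Krt8, Krt18 and Krt19, 0, 16, 11 and 52 tumour pairs and 0, 1, 1 and 6 tumours away from the mean. With array medians subtracted, adjusted p of the F test became 0.0184 (Krt7), 0.206 (Krt8) and 0.062 (Krt18), with 10, 1 and 81 pairs for Krt7, Krt8 and Krt19 and 1, 0 and 11 tumours. Centring on probes measured on all arrays gave 5, 8 and 83 pairs and 1, 0 and 11 tumours for the same genes. Quantile normalisation gave adjusted p of 0.0112 (Krt7), 0.189 (Krt8) and 0.0544 (Krt18), 9, 0 and 4 pairs for these genes, and 1 and 0 tumours for Krt7 and Krt8. Kept top values left Krt19 with an adjusted p of 0.159, 9 pairs and 1 tumour. Asking for both arrays of all 21 tumours, where Krt8 alone of the keratins has a value, gave it 27 pairs and 3 tumours. Asking for 10 tumours gave Krt8 6 pairs and 0 tumours, Krt18 an adjusted p of 0.0685 and Krt19 3 tumours. With whole-number ratios removed the F test could be run for Krt8 alone, with 3 tumours. Dye orientation as a covariate called 4132 probes, 9 pairs for Krt7 and 107 for Krt19, and 1, 3 and 16 tumours for Krt7, Krt8 and Krt19. With full-probe centring as well, chosen after seeing the data, it called 3798 probes, Krt7 at an adjusted p of 0.0226, 13 Krt7 and 108 Krt19 pairs, and 2, 2 and 14 tumours for Krt7, Krt8 and Krt19. Slide run as a block called 710 probes, left Krt8 at 0.215 with 0 pairs and 0 tumours, Krt18 with 2 pairs and 0 tumours, and Krt19 with 17 pairs and 0 tumours. Within slide runs 1, 2 and 3, also chosen later, 0, 0 and 54 probes were called, with adjusted p of 0.745, 1.0 and 0.638 (Krt8), 0.128, 1.0 and 0.508 (Krt18) and 0.262, 0.574 and 0.404 (Krt19). Krt7 could not be fitted in run 1. Without tumour 656 Krt7 had 2 pairs, Krt8 26 pairs and 3 tumours, and Krt18 an adjusted p of 0.129 with 0 pairs and 0 tumours, and the permutation test gave 0.00436 for Krt8 minus Krt18 and 6.6e-04 for Krt7 minus Krt18. Without the high-Vim tumours, a later choice, Krt8 minus Krt7 had 0.248. In each of these settings the cause of the change was not tested, beyond the fewer probes, tumours or arrays that a setting leaves. Leaving out single arrays gave 1448 to 2867 called probes, adjusted p of 0.105 to 0.421 (Krt7), 1.0e-04 to 0.0169 (Krt8), 0.0158 to 0.0954 (Krt18) and 1.45e-04 to 6.74e-04 (Krt19). In those fits pairs ran from 0 to 2, 7 to 43, 0 to 15 and 41 to 62, and tumours away from the mean from 0 to 0, 0 to 4, 0 to 1 and 3 to 6, for Krt7, Krt8, Krt18 and Krt19. The Krt8 call of tumour 649 was lost in 23 of these 42 fits, and the Krt18 call of the F test in 27. Leaving out tumours moved the permutation p from 0.00436 to 0.107 for Krt8 minus Krt18 and from 6.6e-04 (without 656) to 0.404 (without 644) for Krt7 minus Krt18, and the other 4 differences kept their side, at 6e-05 throughout (Krt8 minus Krt19), 3.8e-04 to 0.00742 (Krt8 minus Krt7), 2.1e-04 to 0.018 (Krt18 minus Krt19) and 3.8e-04 to 0.00318 (Krt7 minus Krt19). All relations stayed on their side of the threshold by Pearson's r under every setting run, also with Krt19 taken over all 15 low-Vim tumours with a value. No paired analysis was possible because each tumour is a group of its own and the replicate numbers of its 2 arrays only follow accession order.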
